A study of Homo sapiens with 5 samples.

Results

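The genes described here are 10 Wnt target genes read in single SW480 cells: NOTUM, APCDD1, AXIN2, NKD1, ZNRF3, RNF43, LGR5, ASCL2, PROX1 and TCF7. They were chosen by symbol, with earlier results of these data known. All 10 were among the 15022 genes that were listed in all 5 libraries and seen in at least 10 wells. SW480 is a human colorectal cancer cell line with a mutated APC gene. The cells carried GFP, were injected into zebrafish embryos, and were recovered from dissected tumors at 1 or 4 days post injection (dpi). At 1 dpi the study took all clones to be present, and at 4 dpi the clones that escape clearance. Single cells were sorted into 384-well plates and read by SORT-seq, which counts the 3′ ends of mRNAs with unique molecular identifiers (UMIs), and each plate gave 1 library. Libraries 6, 7 and 8 held 1 dpi cells and libraries 10 and 11 held 4 dpi cells, with no other treatment in either group. Cells with more than 2000 genes and less than 25% of UMIs on mitochondrial genes were kept, which left 228, 142 and 163 cells at 1 dpi and 132 and 161 at 4 dpi, 826 in all. The model is 1 cell line, and each time point came from a mixture of many tumors. Nothing read here says whether plates of 1 time point came from separate mixtures. The p-values below therefore measure the spread between plates, which may be technical.

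In the canonical Wnt pathway, a destruction complex built on APC and AXIN marks β-catenin for degradation, and Wnt ligands stop it. When APC is mutated β-catenin escapes, enters the nucleus and drives genes through TCF/LEF factors, which is the usual first step of colorectal cancer. Many of the genes it drives are inhibitors of the same pathway, acting outside the cell, at the receptor or in the cytoplasm, and others mark the stem cells at the base of the intestinal crypt.

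The promoters of the members are a place where TCF/LEF factors could act, but need not be the only place. The windows before the start sites of APCDD1, which rose strongly with time, and TCF7, itself a TCF/LEF factor, are shown. They are RefSeq sequences (GRCh38.p14), 5′ to 3′, on the plus strand, ending at the base before the start. Capitals mark a match to a TCF/LEF core, searched on both strands as the core CTTTGAA, the core CTTTGAT, the core CTTTGTA and the core CTTTGTT, which differ in their last 2 letters.
APCDD1, chr18:10454385-10454634: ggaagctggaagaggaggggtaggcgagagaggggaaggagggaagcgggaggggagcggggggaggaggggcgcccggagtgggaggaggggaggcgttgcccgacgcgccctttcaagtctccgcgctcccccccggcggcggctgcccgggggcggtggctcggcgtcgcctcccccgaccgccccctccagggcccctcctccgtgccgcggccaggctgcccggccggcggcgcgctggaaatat
TCF7, chr5:134123368-134123617: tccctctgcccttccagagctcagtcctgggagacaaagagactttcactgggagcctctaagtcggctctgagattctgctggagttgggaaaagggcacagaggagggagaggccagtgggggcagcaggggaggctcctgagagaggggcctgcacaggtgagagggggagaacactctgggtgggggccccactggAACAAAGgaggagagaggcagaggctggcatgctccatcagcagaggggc

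The APCDD1 window held no match. The window of this TCF7 start, an internal start of the gene, held 1, AACAAAG, which reads CTTTGTT on the other strand and lies 50 bases before the start. The other TCF7 window and both RNF43 windows held none. Sequence farther from the starts was not searched, so a window without a match says nothing about cores elsewhere at the gene. Of 35116 promoters of 300 bases, 4829 (13.8%) held at least 1 of the 4 cores and 5.20% held CTTTGTT. Of the 10 members, 3 were matched to a promoter entry, and NOTUM, AXIN2, NKD1, ZNRF3, LGR5, ASCL2 and PROX1 were not.

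The cells carried the markers of their label. All 10 epithelial and colon markers checked (EPCAM, KRT8, KRT18, KRT19, CDH1, CDX2, VIL1, CLDN4, CLDN7 and ELF3) had UMIs in every library and together took between 5141 and 6353 CPM, which is UMIs scaled to a common library total. Of 7 leukocyte markers, the 4 in the table summed to 8.37 to 10.2 CPM at 1 dpi and 4.22 to 5.55 CPM at 4 dpi. Of 7 stromal and endothelial markers 4 summed to 24.9 to 27.8 CPM at 1 dpi and 34.3 to 45.7 CPM at 4 dpi, and of 5 erythroid markers 1 was in the table, at 4.40 to 9.41 CPM and 2.64 to 3.79 CPM. PTPRC, CD3E, MPO, COL1A2, DCN, CDH5, HBA2, HBB and ALAS2 were among those not in the 15022-gene table. The cells of a library held between 3789627 and 7503652 UMIs, with a median of 18823 to 36197 UMIs per cell. Wells over the gene minimum that had too many mitochondrial UMIs numbered 1, 3 and 1 at 1 dpi and 25 and 30 at 4 dpi. Wells are numbered by plate position, and 260 of the 296 well numbers in use were used in at least 2 libraries, with no 2 cells of identical counts. Libraries 6, 7 and 10 were read on 1 flow cell and libraries 8 and 11 on another, so each flow cell held both times.

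From 1 to 4 dpi, 5 of the 10 members rose and none fell. The 5 that rose were PROX1, APCDD1, NKD1, NOTUM and ASCL2, by between 1.40-fold and 2.40-fold. In the same test 13.4% of all 12646 genes tested were called higher and 14.2% lower. The median change of the 10 members was 0.35 on the log2 scale, against 0.00 over all genes tested. From these same data the study had described NOTUM, APCDD1, AXIN2, ASCL2 and PROX1 as high in a cell cluster that expanded by 4 dpi. The members are therefore not an independent choice, and the comparison with all genes is a description. For this test the UMIs of a library's cells were added up, and the sums went into the quasi-likelihood test of edgeR with Benjamini-Hochberg adjustment over all genes. Levels are in CPM after TMM scaling. Because these are sums over a plate, a rise can come from more cells with the transcript or from more transcripts per cell, which the sum cannot tell apart. The libraries of the 2 times did not overlap for 8 of the 10 members, as for 54.6% of all genes. Among the marker lists, EPCAM rose and KRT18, KRT19, CDH1 and ELF3 fell in the same test, COL1A1 rose from 1.47, 4.18 and 2.73 CPM to 16.6 and 7.02 CPM, and HBA1 fell. Their part in the changes of the members was not tested.

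Of the 3 inhibitors that rose, APCDD1 rose most. APCDD1, a membrane glycoprotein that binds Wnt ligands and their LRP co-receptor, lies on chromosome 18 (10454635 to 10489949, plus strand, hg38). It stood at 195, 106 and 199 CPM at 1 dpi (libraries 6, 7 and 8, the order used throughout) and at 374 and 325 CPM at 4 dpi (libraries 10 and 11). Both 4 dpi libraries were above every 1 dpi library, and library 7 was the lowest. APCDD1 rose by 1.07 ± 0.18 (SE) on the log2 scale, with an adjusted p of 4.8e-04 (edgeR). With every cell thinned to 5000 UMIs, APCDD1 was seen in 41.6%, 26.4% and 38.8% of 1 dpi cells and in 64.6% and 61.0% of 4 dpi cells. The exact 95% binomial intervals were 35.1% to 48.3% for library 6 and 53.0% to 68.6% for library 11, the closest pair. They cover counting error within a plate and not the spread between plates, so they do not test the times. Without thinning the shares were 66.7% to 74.2% at 1 dpi and 75.8% to 85.6% at 4 dpi. In near-empty wells, which measure free RNA, the share was between 0% and 3.09%, at a median of 56 to 206.5 UMIs per well, far under the depth of the cells. At so low a depth a small share does not show that free RNA held little of a member, here or below. In library 8 a single cell held 183 of the 948 APCDD1 UMIs.

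NOTUM, a secreted enzyme that removes the lipid Wnt ligands need for binding, lies on chromosome 17 (81952507 to 81961840, minus strand). Its level was 348, 253 and 323 CPM at 1 dpi and 481 and 379 CPM at 4 dpi. The groups did not overlap, but library 11 was only slightly above library 6. NOTUM rose by 0.48 ± 0.13 (SE) on the log2 scale (edgeR adjusted p 0.0101). With library 10 left out the change was 0.30 and not past the threshold (adjusted p 0.128). At 5000 UMIs per cell NOTUM was seen in 67.7%, 62.9% and 63.1% of 1 dpi cells and in 66.9% and 64.8% of 4 dpi cells, so the share of cells with a UMI overlapped while the summed level did not. In near-empty wells the share was 0% to 3.88% at 1 dpi and 10.0% to 10.3% at 4 dpi.

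NKD1, an inhibitor in the cytoplasm that binds Dishevelled, lies on chromosome 16 (50548396 to 50649249, plus strand). It was at 286, 243 and 306 CPM at 1 dpi and at 369 and 470 CPM at 4 dpi, with no overlap. NKD1 rose by 0.59 ± 0.12 (SE) on the log2 scale (edgeR adjusted p 0.00144). The thinned share of cells with an NKD1 UMI was 54.4% to 57.9% at 1 dpi and 72.3% in both 4 dpi libraries. In near-empty wells it was 0% to 4.41% at 1 dpi, and 2.06% and 15% at 4 dpi, with the highest share in library 11.

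AXIN2, the inducible scaffold of the destruction complex and the classic reporter of Wnt activity, lies on chromosome 17 (65528563 to 65561648, minus strand). Unlike those 3 inhibitors it did not pass the test in either direction. Its level was 188, 178 and 183 CPM at 1 dpi and 166 and 162 CPM at 4 dpi, so the later libraries were slightly lower without overlap. The difference was -0.16 ± 0.09 (SE) on the log2 scale, with an adjusted p of 0.207 (edgeR), and its sign turned with every cell thinned to 5000 UMIs (0.18).

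The membrane ubiquitin ligases ZNRF3 and RNF43, which remove Frizzled receptors from the cell surface, also passed the test in neither direction. ZNRF3 (chromosome 22, 28883572 to 29057488, plus strand) was at 86.3, 79.0 and 83.8 CPM at 1 dpi and at 75.3 and 70.8 CPM at 4 dpi. That was a difference of -0.19 ± 0.11 (SE) on the log2 scale (edgeR adjusted p 0.225), and it was 0.25 with thinned cells. RNF43 (chromosome 17, 58353676 to 58417595, minus strand) was at 20.6, 23.9 and 25.2 CPM at 1 dpi and at 26.4 and 24.2 CPM at 4 dpi, where the groups overlapped. Its difference was 0.13 ± 0.16 (SE) on the log2 scale (edgeR adjusted p 0.579). An antisense gene, ZNRF3-AS1, was listed apart with 7 to 9 UMIs per library, and nothing read here states whether counting used the strand.

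LGR5, the R-spondin receptor that marks crypt stem cells, lies on chromosome 12 (71439798 to 71586310, plus strand) and had the fewest UMIs of the members. Its 1 dpi libraries held 79, 47 and 45 UMIs and its 4 dpi libraries 47 and 41. These were 10.6, 8.92 and 9.45 CPM at 1 dpi and 11.8 and 10.7 CPM at 4 dpi, where libraries 6 and 11 were nearly level. The difference of 0.21 ± 0.23 (SE) on the log2 scale was not past the threshold (edgeR adjusted p 0.519). LGR5 was seen in 154 of 826 cells (18.6%), and in 3.75% to 5.75% of cells at 5000 UMIs. In near-empty wells the share was 0% in 4 libraries and 3.33% in library 11.

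Of the 3 transcription factors, PROX1 and ASCL2 rose and TCF7 did not. PROX1, a homeobox factor that is switched on by β-catenin in colorectal tumors, lies on chromosome 1 (213983181 to 214041510, plus strand). It stood at 101, 86.0 and 84.8 CPM at 1 dpi and at 201 and 236 CPM at 4 dpi, so every 4 dpi library was far above every 1 dpi library. PROX1 rose by 1.26 ± 0.11 (SE) on the log2 scale, with an adjusted p of 1.3e-06 (edgeR), the largest rise of the 10. The thinned share of cells with a PROX1 UMI was 25% to 33.1% at 1 dpi and 47.7% and 48.4% at 4 dpi, against 0% to 5.00% of near-empty wells. The antisense gene PROX1-AS1 was listed apart with 39 to 63 UMIs per library.

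ASCL2, the basic helix-loop-helix factor that controls crypt stem cell fate, lies on chromosome 11 (2268498 to 2270588, minus strand). Its level was 70.9, 52.8 and 83.6 CPM at 1 dpi and 80.8 and 112 CPM at 4 dpi, and library 10 fell below library 8. ASCL2 rose by 0.48 ± 0.17 (SE) on the log2 scale (edgeR adjusted p 0.0388). It was not past the threshold when library 6, 7 or 11 was left out, with changes of 0.51, 0.33 and 0.22 and adjusted p of 0.0561, 0.124 and 0.424. With thinned cells it was 0.55 (adjusted p 0.0548). TCF7 (chromosome 5, 134114681 to 134151865, plus strand), a TCF/LEF factor that is also a Wnt target, was at 45.7, 43.7 and 42.8 CPM at 1 dpi and 42.1 and 41.1 CPM at 4 dpi. Its difference of -0.09 ± 0.13 (SE) on the log2 scale was not past the threshold (edgeR adjusted p 0.643), and it was 0.23 with thinned cells.

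**Figure D1:**
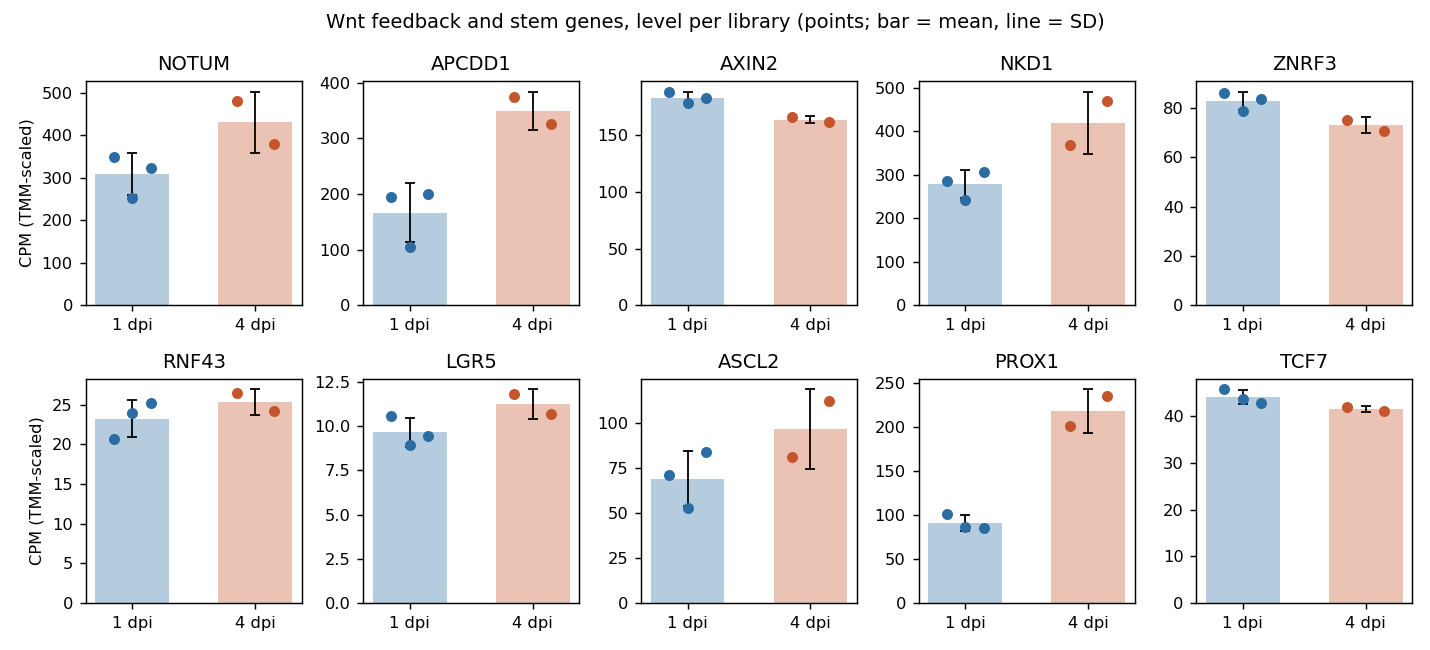
Level of each member in CPM after TMM scaling (vertical axis of each panel, from 0), with 1 point per library, the bar at the mean and the line at ± 1 SD, for 3 libraries at 1 dpi and 2 at 4 dpi. PROX1 and APCDD1 show the widest gap between the times, while RNF43 and ASCL2 overlap.

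Within each flow cell the 5 rising members were also higher at 4 dpi. On the first flow cell (libraries 6 and 7 against 10) the log2 differences were 0.68 for NOTUM, 1.31 for APCDD1, 0.48 for NKD1, 0.39 for ASCL2 and 1.10 for PROX1. On the second (library 8 against 11) they were 0.23, 0.71, 0.62, 0.42 and 1.47 in the same order. These within-flow-cell values have no test, since the second flow cell held 1 library of each time. When libraries were scaled by their ERCC spike-in RNA, the log2 changes of the 5 were 0.37, 0.98, 0.36, 0.26 and 1.01 and no member was called. The libraries held 107, 119 and 55.9 UMIs per ERCC UMI at 1 dpi and 112 and 49.5 at 4 dpi, so this ratio was lower on the second flow cell. With the flow cell as a term beside ERCC scaling, a fit chosen after seeing the data, 4 members were called higher, and ASCL2 was not (0.34, edgeR adjusted p 0.0760).

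The mitochondrial share of a cell changed which members were called. With only cells under 15% mitochondrial UMIs, 2 members were higher at 4 dpi and 3 were lower. APCDD1 (0.95) and PROX1 (1.09 on the log2 scale) remained higher, while NOTUM (0.29), NKD1 (0.30) and ASCL2 (0.18) were not past the threshold, with edgeR adjusted p of 0.183, 0.0662 and 0.495. AXIN2 (-0.36), ZNRF3 (-0.38) and TCF7 (-0.53) fell in these cells, with adjusted p of 0.0208, 0.0428 and 0.0335.

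**Figure D2:**
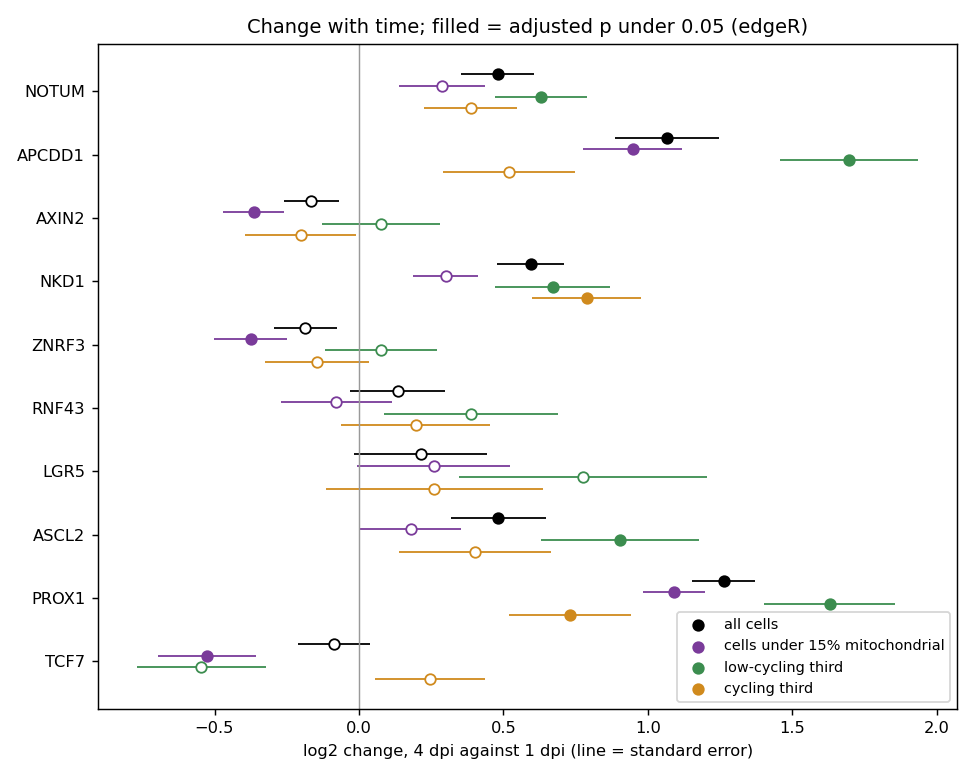
Log2 change from 1 to 4 dpi of each member (horizontal axis, with lines of ± 1 standard error) in all cells, in cells under 15% mitochondrial UMIs, and in the low-cycling and the cycling cells; filled points had an edgeR adjusted p under 0.05. APCDD1 and PROX1 are filled in 3 and 4 of the 4 sets, while in the cells under 15% AXIN2, ZNRF3 and TCF7 lie below 0 and are filled.

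The relation between the members and the mitochondrial share was therefore set out by library. This comparison was chosen after the data had been seen. Cells of 15% to 25% mitochondrial UMIs numbered 67, 33 and 27 at 1 dpi and 52 and 58 at 4 dpi, against 161, 109, 136, 80 and 103 cells under 15%. At 1 dpi NOTUM was lower in the cells of higher share, at 231 against 356 CPM in library 6, 191 against 248 in library 7 and 288 against 308 in library 8. At 4 dpi it was higher in them after TMM scaling, at 492 against 450 CPM in library 10 and 523 against 299.6 in library 11. Without TMM scaling NOTUM was lower in them in library 10, at 441 against 503 CPM, and higher in library 11, at 473 against 337 CPM. The direction in library 10 thus depended on the scaling, and the test below was not run on unscaled sums.

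The change of that difference from 1 to 4 dpi was tested with the library as a block. It was called higher for 5 of the 10 members, against 2.34% of the 11559 genes tested. The 5 were NOTUM with 0.84 ± 0.18 (SE) on the log2 scale (edgeR adjusted p 0.00397), AXIN2 with 0.83 ± 0.19 (0.00541), NKD1 with 0.91 ± 0.17 (0.00102), ASCL2 with 0.86 ± 0.22 (0.0179) and TCF7 with 1.23 ± 0.31 (0.0140). NKD1 showed it most clearly in library 11, with 696 CPM in cells of 15% to 25% and 352 CPM in the others. ZNRF3 (0.70, adjusted p 0.0506), RNF43 (0.85, 0.169), PROX1 (0.45, 0.299), APCDD1 (0.34, 0.362) and LGR5 (-0.11, 0.940) were not past the threshold. Without library 11 only TCF7 was called, and the differences of NOTUM, AXIN2, NKD1 and ASCL2 were then 0.49, 0.67, 0.66 and 0.69. Without library 10 TCF7 was not called (0.62, adjusted p 0.404).

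**Figure D3:**
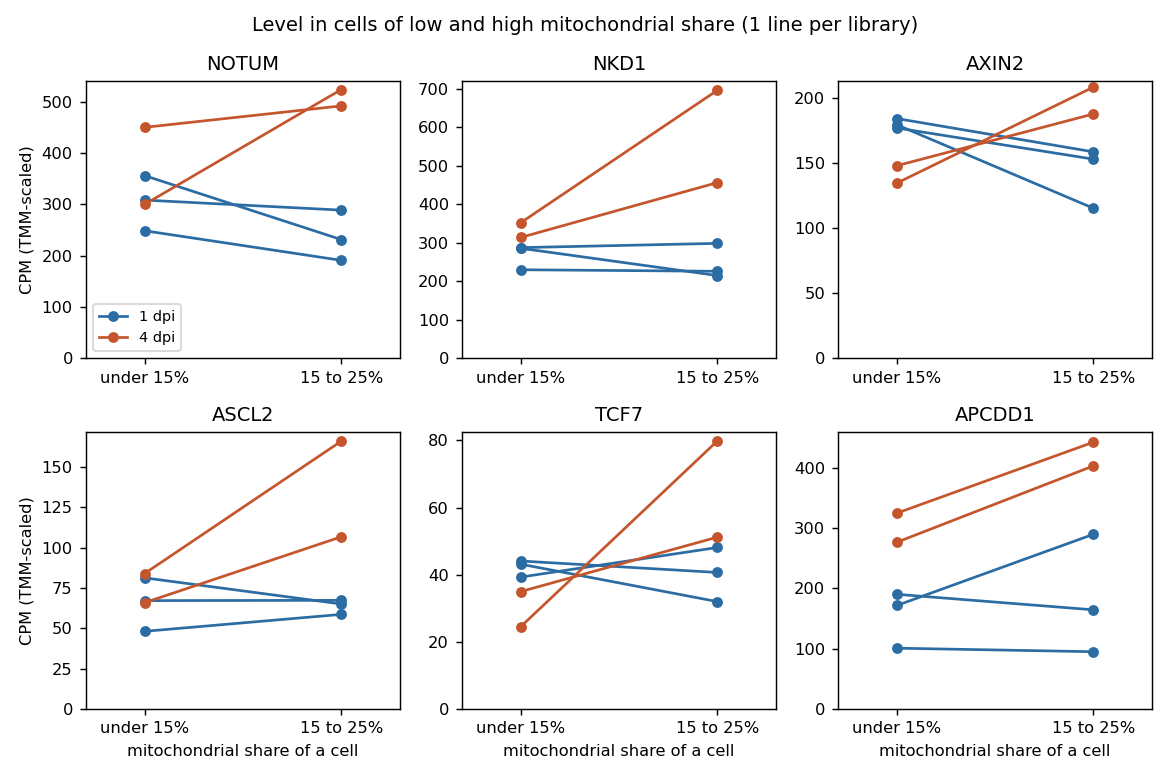
Level in CPM after TMM scaling (vertical axis, from 0) of 6 members in cells under 15% and in cells of 15% to 25% mitochondrial UMIs, with 1 line per library, for 3 libraries at 1 dpi and 2 at 4 dpi. For all 6 members both 4 dpi lines rise from left to right, whereas the 1 dpi lines of NOTUM and AXIN2 fall. Without TMM scaling library 10 went from 503 to 441 CPM for NOTUM and from 165 to 168 CPM for AXIN2.

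Across single cells the same turn was seen without a cut. The correlation of the log-normalized NKD1 level with the mitochondrial share was -0.22, -0.15 and -0.07 at 1 dpi (228, 142 and 163 cells) and 0.33 and 0.48 at 4 dpi (132 and 161 cells). For NOTUM it was -0.29, -0.17 and -0.12 at 1 dpi and 0.25 and 0.32 at 4 dpi. ASCL2 had -0.11, -0.05 and -0.05 at 1 dpi and 0.22 and 0.28 at 4 dpi. APCDD1, which the interaction test did not call, had -0.10, -0.13 and -0.02 at 1 dpi and 0.21 and 0.33 at 4 dpi. The sign also turned in every library for ZNRF3 and TCF7, but not for AXIN2, RNF43, LGR5 and PROX1. The same r was not computed over all genes. These values describe the cells of a plate, which share a library and differ in depth, and no test was made of them. The part that RNA quality, or wells lost at the 25% maximum, has in the change of the members was not tested.

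Of the members, NOTUM alone passed the test between cycling and low-cycling cells. In each library the third of cells with the highest share of UMIs on S and G2/M phase genes (cycling) was set against the third with the lowest (low-cycling), with the library as a block. NOTUM was lower in cycling cells by -0.44 ± 0.10 (SE) on the log2 scale (edgeR adjusted p 0.00268). Of 10959 genes tested, 18.6% were called in either direction. NOTUM was at 337, 238, 355, 531 and 426 CPM in the low-cycling cells of libraries 6, 7, 8, 10 and 11 and at 247, 203, 280.0, 305 and 332 CPM in the cycling cells, lower in 5 of 5 libraries. NKD1 had 0.35 ± 0.13 (SE) and was not past the threshold (adjusted p 0.0624), with 199, 216, 245, 380.3 and 318 CPM in low-cycling cells and 301, 196, 331, 356 and 600.4 CPM in cycling cells. Cycling cells were deeper, with a median of 24490.5 to 42096.5 UMIs against 15306.5 to 29885 in low-cycling cells, and with thinned cells NOTUM was still lower and NKD1 was called higher (0.42, adjusted p 0.0454).

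The rise with time was larger in low-cycling cells for APCDD1 in the main test, but this depended on the libraries and settings used, as given below. In low-cycling cells the same 5 members rose as in all cells, against 4.27% of all genes called higher. They were APCDD1 (1.70), PROX1 (1.63), ASCL2 (0.90), NKD1 (0.67) and NOTUM (0.63 on the log2 scale). In cycling cells 2 members rose, NKD1 (0.79) and PROX1 (0.73), against 6.93% of all genes. The test of the difference between the classes called 1 member, APCDD1, against 0.867% of all genes in either direction.

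APCDD1 was at 141, 98.2 and 114 CPM in low-cycling cells at 1 dpi and at 402 and 365 CPM at 4 dpi, but at 186, 112 and 296 CPM in cycling cells at 1 dpi and at 260.2 and 308 CPM at 4 dpi. Its rise was smaller in cycling cells by 1.09 on the log2 scale (-1.09 ± 0.22 SE, edgeR adjusted p 0.00742). It was not past the threshold when library 8 (-0.75, adjusted p 0.0558), library 10 (-0.90, 0.287) or library 11 (-1.29, 0.0794) was left out, nor with thinned cells (-0.59) or DESeq2 (-1.10, 0.628). PROX1 had a difference of -0.97 ± 0.27 (SE) that was not past the threshold (adjusted p 0.0810). In cycling cells PROX1 was at 122 CPM in library 10 and 260 CPM in library 11, and without library 11 its change with time there was 0.06.

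**Figure D4:**
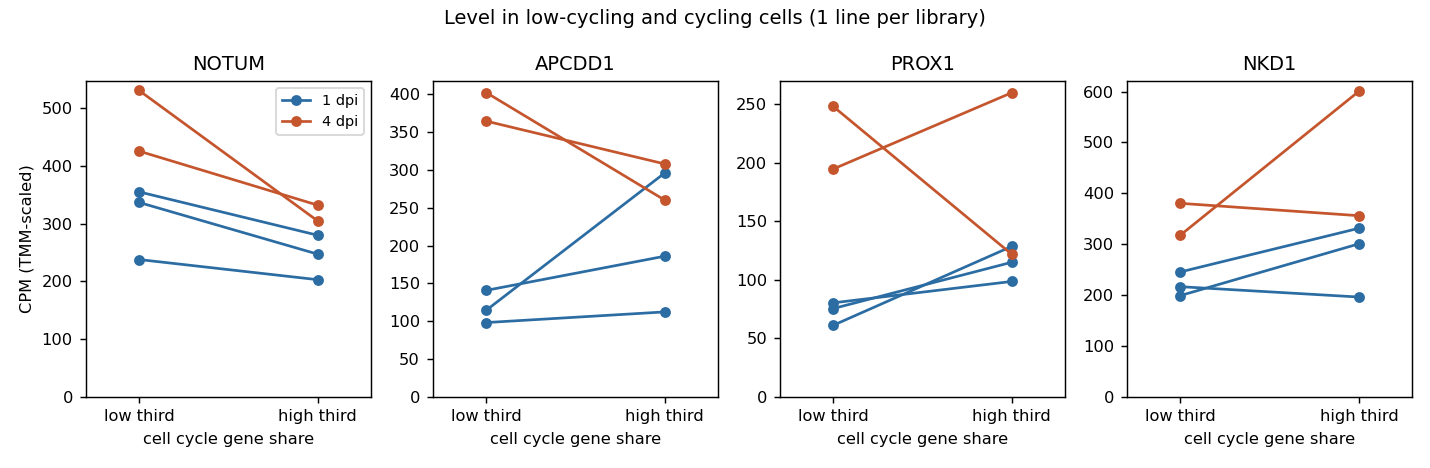
Level in CPM after TMM scaling (vertical axis, from 0) of NOTUM, APCDD1, PROX1 and NKD1 in the third of cells with the lowest and the third with the highest share of cell cycle UMIs, with 1 line per library, for 3 libraries at 1 dpi and 2 at 4 dpi. All 5 NOTUM lines fall, and the APCDD1 lines rise at 1 dpi and fall at 4 dpi.

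Within a library, cells high in 1 of the inhibitors NOTUM, APCDD1 and NKD1 tended to be high in the others of these. Pearson's r of log-normalized levels was computed over the cells of each library for all 45 pairs of members, and is given as a description, because the cells of a plate share their library. The highest was NOTUM with NKD1, whose r was 0.56, 0.52 and 0.55 at 1 dpi and 0.64 and 0.45 at 4 dpi. APCDD1 with NKD1 had a median r of 0.54 over the 5 libraries (0.37 to 0.60), and NOTUM with APCDD1 one of 0.51 (0.41 to 0.65).

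The factors ASCL2 and PROX1 co-varied with these inhibitors, and the order of the pairs differed between libraries. The median r was 0.49 for NKD1 with ASCL2 (0.41 to 0.53), 0.47 for APCDD1 with PROX1 (0.37 to 0.52) and 0.45 for ASCL2 with PROX1 (0.31 to 0.49). AXIN2 co-varied less tightly, with 0.38 for NKD1 (0.20 to 0.46), 0.36 for ZNRF3 (0.06 to 0.47) and 0.35 for NOTUM (0.10 to 0.44). At the other end AXIN2 with TCF7 had a median r of 0.02 (-0.09 to 0.17). RNF43, LGR5 and TCF7 had a median r with the other members of 0.15, 0.12 and 0.14, and in counts this sparse a weak r says little.

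Over the 45 pairs the median r was 0.19, and 38 pairs were above 0 in all 5 libraries. With each cell thinned to 5000 UMIs the median over pairs was 0.09 and 23 pairs were above 0 in all 5, and NOTUM with NKD1 then had 0.35 and APCDD1 with NKD1 0.36. No member followed depth closely, since r with the log number of UMIs of a cell was between -0.18 and 0.34 over all members and libraries. In the cells under 15% mitochondrial UMIs the median over pairs was 0.20.

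**Figure D5:**
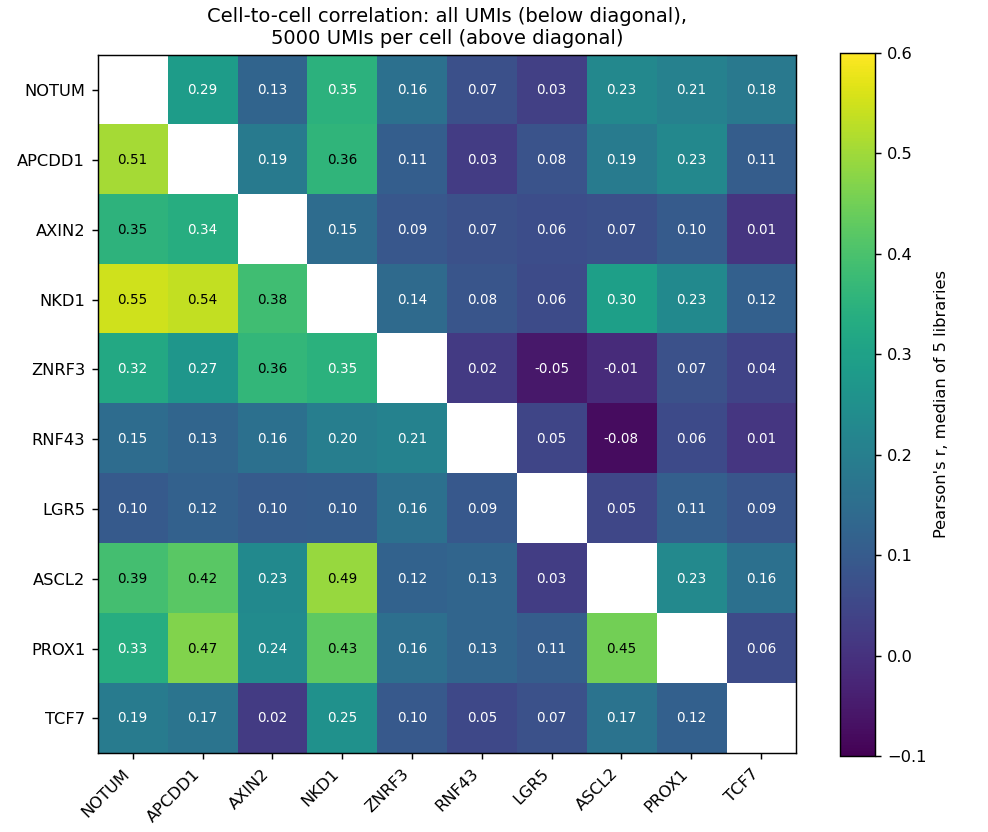
Median over 5 libraries of Pearson's r between members across cells (color scale from -0.1 to 0.6), with all UMIs below the diagonal and 5000 UMIs per cell above it. NOTUM, APCDD1, NKD1, ASCL2 and PROX1 form the brightest block, from 0.33 to 0.55 below the diagonal, and LGR5, RNF43 and TCF7 are dark.

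The members were also set against all 9228 other genes with a UMI in at least 20% of cells, ranked by their median r. NKD1 ranked first for NOTUM, APCDD1, ASCL2 and TCF7, NOTUM ranked first for NKD1, and APCDD1 ranked first for PROX1. For ASCL2, 4 of the 5 nearest genes were members, the other being FGF3 (0.39), a fibroblast growth factor. NKD1 had GYLTL1B (0.46) and SYK (0.43), a tyrosine kinase, after 3 members, and PROX1 had SYK (0.44) after 2 members, followed by NKD1 (0.43) and CD46 (0.40), a complement regulator. For NOTUM the nearest non-members were CXXC5 (0.43), SP5 (0.40), a Wnt-induced factor, and GSE1 (0.39), and for APCDD1 PCMTD2 (0.45) and CXXC5 (0.44).

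For AXIN2 non-members ranked first, by a narrow margin. Its nearest genes were SP5 (0.42), SGK223 (0.41), BMP4 (0.39), a bone morphogenetic protein, and TNS3 (0.38), nearly level with NKD1 (0.38). Over the libraries the r of AXIN2 with SP5 ran from 0.30 to 0.49 and with BMP4 from 0.29 to 0.45. With SGK223 it ran from 0.10 to 0.46 and with TNS3 from 0.05 to 0.43. The members ZNRF3, NOTUM and APCDD1 ranked 8, 13 and 18 of 9228 genes for AXIN2. ZNRF3 was nearest to SGK223 (0.38) and PHLDA1 (0.38), followed by AXIN2, SPEN (0.35) and ZNF503 (0.35). Over the libraries its r with SGK223 ran from 0.05 to 0.47 and with PHLDA1 from 0.15 to 0.51. With SPEN it ran from -0.12 to 0.44 and with ZNF503 from -0.03 to 0.45. The nearest genes of RNF43 reached only 0.24 (SUGP2), with PURA, MLH3, ETAA1 and NCOA1 at 0.22, and those of TCF7 included NKD1 (0.25), ZNF395 (0.21), PPP3CB (0.21) and BSPRY (0.21). Some of these were below 0 in a library, with a lowest r of -0.08 for MLH3 and for ETAA1 and -0.04 for NCOA1 and for PPP3CB. With thinned cells the median r was -0.03 for ETAA1 and -0.02 for BSPRY. LGR5 was under the detection limit for this ranking. The median over all genes was 0.02 for NOTUM and for APCDD1, 0.04 for AXIN2 and 0.05 for NKD1.

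Several members were unevenly spread over cells. At 5000 UMIs per cell the variance of APCDD1 was 2.86 times its mean (median of 5 libraries), which ranked 111 of 9229 genes. NOTUM followed with 2.36 (rank 184), NKD1 with 2.09 (rank 250), PROX1 with 2.03 (rank 270), AXIN2 with 1.53 (rank 594) and ASCL2 with 1.34 (rank 1037), where a Poisson count gives 1 and the median gene had 1.10. TCF7 had 1.16, and ZNRF3 (1.04) and RNF43 (0.94) were near the Poisson value. Their means were low, at 0.32 to 0.46 UMIs per thinned cell for ZNRF3 and 0.09 to 0.15 for RNF43, against 1.44 to 2.85 for NOTUM. At low means the ratio tends to lie near 1 whatever the spread. The ratio and its rank were not adjusted for the mean, so they do not show which members were spread evenly.

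Summed over the 10 members, a cell thinned to 5000 UMIs held a median of 5, 4 and 5 member UMIs at 1 dpi and 8 and 9 at 4 dpi. The share of cells with UMIs of 6 or more members was 16.4%, 7.86% and 11.9% at 1 dpi and 22.3% and 29.6% at 4 dpi, while the share with none was 2.86% to 6.64% at 1 dpi and 3.77% to 5.38% at 4 dpi. Both 4 dpi libraries were above all 1 dpi libraries in the first share, with a two-sided exact permutation p of 0.2, the smallest that 3 libraries against 2 can give in this test. At 5000 UMIs per cell, cells without any member UMI were present at both times, and such cells were not counted at full depth. The 90th percentile of member UMIs per cell was 14.5, 10 and 13 at 1 dpi and 20.1 and 18 at 4 dpi.

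HES1, a target of the Notch pathway that was chosen with earlier results of these data known, was set beside the members in the same cells. Its r with AXIN2 was 0.35, 0.32 and 0.28 at 1 dpi and 0.03 and 0.08 at 4 dpi. Its r with NKD1 was 0.14, 0.16 and 0.18 at 1 dpi and -0.18 and -0.29 at 4 dpi, so it was above 0 in every 1 dpi library and below 0 in both 4 dpi libraries. APCDD1, ASCL2 and PROX1 had an r with HES1 below 0 in all 5 libraries, between -0.29 and -0.02. HES5, another Notch target, had an r with NKD1 of 0.25, 0.28 and 0.33 at 1 dpi and -0.02 and 0.07 at 4 dpi. With NOTUM the r of HES5 was above 0 in all 5 libraries, between 0.02 and 0.28.

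The other genes of the pathway are given by list, with 13.4% of all genes called higher and 14.2% lower as the background of each count. Of the ligands and their secretion genes, 7 of 21 listed were tested and only WNT11 was called, rising from 2.54, 3.99 and 2.94 CPM to 10.1 and 13.0 CPM (1.88 on the log2 scale, edgeR adjusted p 3.4e-04). Of the receptors and the R-spondin axis 13 of 21 were tested, with 2 higher and 3 lower. LGR6 (1.44) and FZD5 (0.86) rose, and LGR4 (-1.01), the broadly expressed relative of LGR5, and FZD6 (-0.51) fell most. Of 5 extracellular antagonists tested of 13 listed, SFRP5 (2.95) and KREMEN1 (0.90) rose and none fell. SFRP5, a secreted Wnt-binding protein, went from 1.20, 0.95 and 0.84 CPM to 7.56 and 8.59 CPM.

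Of 18 destruction complex and transducer genes tested of 20 listed, 1 was higher and 4 were lower. CTNNB1, which encodes β-catenin itself, rose from 229, 251 and 254 CPM to 367 and 358 CPM (0.57 on the log2 scale, edgeR adjusted p 3.3e-04). The kinases GSK3B (-0.52) and CSNK1A1 (-0.44), which phosphorylate β-catenin, fell most. APC was at 77.3, 71.2 and 63.8 CPM at 1 dpi and 50.4 and 61.4 CPM at 4 dpi and was not past the threshold (adjusted p 0.0565).

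Of 8 TCF/LEF factors and cofactors tested of 12 listed, LEF1 (-0.70) and BCL9L (-0.59), a β-catenin cofactor, fell and none rose. TCF7L1 (0.81), TCF7L2 (0.36), BCL9 (-0.26), PYGO2 (-0.23), TLE3 (0.23) and TLE4 (1.15) were not past the threshold. Of 22 other Wnt target genes tested of 27 listed, 2 were higher and 5 lower, with a median change of 0.08 on the log2 scale. CD44 (0.65) and BMP4 (0.34) rose, and EPHB3 (-1.44) and TNFRSF19 (-1.04) fell most. EPHB3, an Ephrin receptor of the crypt, went from 62.6, 59.0 and 61.1 CPM to 23.2 and 21.9 CPM, the opposite direction to the 5 members that rose.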

How the data were processed

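The authors sequenced 5 SORT-seq plates of SW480 xenograft cells on a NextSeq, mapped read 2 with BWA (version not stated; the submitters' processing notes name the build hg38), and deposited raw UMI counts per gene and well, not normalized and with no filter on wells. Cells and genes were filtered as in the authors' code, with ERCC counts included in the filters and left out of the tests. For each library the UMI counts of its cells (826 in all) were added up, and the sums were tested with edgeR 4.0.16 in R 4.3.3 (quasi-likelihood test, TMM, a filter on low counts, two-sided, adjusted over all genes, threshold 0.05). DESeq2 1.42.0 was an alternative, and the others were RLE factors, total UMIs, ERCC scaling, no low-count filter, a flow cell term, other cell filters, cells thinned to 5000 UMIs (815 of 826 cells), and leaving out each library. The fits were tested on simulated data. Cell cycle genes came from Seurat 5.3.0 (94 of 97 in the table). Correlations used Python 3.11.15, numpy 2.4.6 and scipy 1.17.1, on counts scaled to 10000 per cell and log-transformed. Intervals of shares are exact and cover counting error only. Near-empty wells had fewer than 200 genes. Gene positions came from GENCODE on hg38 and promoters from RefSeq.

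The members and gene lists were chosen with earlier results of these data known. All 10 members are named, with up to 2 called genes of largest rise and fall per pathway list, every tested TCF/LEF gene, and the 5 genes of highest median r for each member with a UMI in at least 30% of cells, except for items not reported here. No doublet caller was run.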

Additional observations from a re-analysis of the deposited data

Results flagged for a closer look

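The change of APCDD1 with time differed between cycling and low-cycling cells, with a difference of -1.09 on the log2 scale in the test of the interaction. It was not past the threshold without library 8, 10 or 11, with thinned cells (-0.59) or with DESeq2 (adjusted p 0.628).

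The difference between cells of 15% to 25% and cells under 15% mitochondrial UMIs changed from 1 to 4 dpi for 5 members in the test of the interaction, by 0.84 for NOTUM, 0.83 for AXIN2, 0.91 for NKD1, 0.86 for ASCL2 and 1.23 for TCF7 on the log2 scale. Of the 11559 genes in that test, 271 were called higher and 458 lower. Without library 11 only TCF7 was called among the members, and without library 10 TCF7 was not.

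The correlation with HES1 was above 0 in every 1 dpi library and below 0 in every 4 dpi library for NOTUM and NKD1. The mean r at 4 dpi minus the mean r at 1 dpi was -0.29 for NOTUM and -0.39 for NKD1, and the difference was not tested. With HES5 neither gene was below 0 in every 4 dpi library.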

How the results depend on the processing

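No paired analysis was possible because 1 and 4 dpi share no library number, but each flow cell held both times, and with the flow cell as a term the same 5 members and 3590 genes were called. The cycling comparison had the library as a block, and with no replicate block NOTUM was still the 1 member called, with 1965 genes called in place of 2043. For the change with time, ERCC scaling moved the median of all genes by -0.20 on the log2 scale and left 0 members and 3 genes called (356 at an unadjusted p under 0.05), 33.3% of them higher in place of 48.6%. A 15% mitochondrial maximum gave 2 members higher and 3 lower, and thinned cells 4 members (not ASCL2) and 1197 genes in place of 3485. RNF43 turned to -0.036 with ERCC scaling and -0.078 with the 15% maximum, and with thinned cells AXIN2 was 0.18, ZNRF3 0.25 and TCF7 0.23. ERCC scaling with the flow cell as a term, added after the data were seen, lost ASCL2, and the other scalings and filters kept the same 5 members. Leaving out each library gave 4 to 5 members higher.

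In the cycling comparison 1 member was higher without the low-count filter and with thinned cells, 2 with cells split at the median in place of the outer groups, and 0 to 3 when a library was left out (AXIN2, NKD1 and PROX1 without library 10). DESeq2 called 1177 genes and thinned cells 710. ASCL2 turned to 0.019 with the median split and 0.36 with thinned cells, and APCDD1 was -0.087 (without library 8) to 0.41 with a library left out. In low-cycling cells DESeq2 called 3 members higher, leaving out a library 3 to 5 and 323 to 874 genes, the median split 1709 genes with 1 member lower (TCF7), and thinned cells 267 genes, against 1002. The higher share of calls there was 59.6% with thinned cells in place of 46.7%. With a library left out AXIN2 was -0.42 to 0.40 and ZNRF3 -0.057 to 0.15, and with thinned cells ZNRF3 was -0.017 and TCF7 0.20. In cycling cells DESeq2 called 1 member and 814 genes, leaving out a library 0 to 2 members and 518 to 1018 genes (0 without library 11), the median split 2486 genes and thinned cells 264, against 1315. With a library left out AXIN2 was -0.55 to 0.052 and ASCL2 -0.12 to 0.76, and with thinned cells AXIN2 was 0.11, ZNRF3 0.25 and TCF7 -0.055.

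The interaction of time and cycling called 95 genes, 33 with DESeq2, 197 without the filter, 61 with the median split, 23 with thinned cells and 30 to 118 with a library left out. Of these 73.7%, 81.8%, 62.4%, 67.2% and 43.5% were higher in the first 5. Members lower were 0 with DESeq2 (1 at an unadjusted p under 0.05), the median split or thinned cells, 2 without the filter, and 0 to 1 with a library left out. With a library left out AXIN2 was -0.96 to 0.46, NKD1 -0.41 to 0.61 and RNF43 -0.45 to 0.11. With thinned cells NKD1 turned to -0.17, ZNRF3 to 0.25 and TCF7 to -0.26, and with the median split LGR5 turned to 0.19. The interaction of time and mitochondrial share, added after the data were seen, called 729 genes, 225 with DESeq2 (3 members) and 187 to 791 with a library left out (1 to 5 members). LGR5 was -0.30 to 0.078 with a library left out. Thinning lowered the median r of the 45 pairs to 0.091 and the pairs above 0 in all 5 libraries to 23. Leaving out a library gave medians of 0.17 to 0.20. Thinned cells leave fewer genes tested, and the causes of the other shifts were not tested.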
